A study of Mus musculus with 59 samples.

Results

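The genes examined were 8 enzymes of long-chain and polyunsaturated fatty acid synthesis, the desaturases Fads1, Fads2, Fads3 and Fads6 and the elongases Elovl1, Elovl2, Elovl3 and Elovl5, out of 21774 protein-coding genes. A called ChIP-seq peak was given to one of them when its centre lay in the gene, or when the nearest protein-coding start site (TSS), at most 100 kb away, belonged to it. Of 102931 peaks in 7 lists, 179 met this rule. Livers came from male mice. BCL6, PPARα and PPARδ were mapped in wild-type C57BL/6 mice fed ad libitum and after an overnight fast. BCL6 was also mapped in fed Bcl6 fl/fl mice, which carry the floxed allele without a Cre and are the controls for hepatocyte knockouts made with Albumin-cre. Each list stood for 3 livers, so that 21 of the 59 samples of the series lie behind the lists; the other samples were not analysed here.

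Mammals cannot make linoleic or alpha-linolenic acid, but liver lengthens and desaturates these dietary fats into arachidonic, eicosapentaenoic and docosahexaenoic acid. FADS2, the delta-6 desaturase, starts this route, ELOVL5 lengthens its product, FADS1, the delta-5 desaturase, acts next, and ELOVL2 lengthens the longest intermediates. ELOVL1 and ELOVL3 act mainly on saturated and monounsaturated acyl chains, and FADS3 and FADS6 are related proteins whose roles are less settled. PPARα and PPARδ are nuclear receptors that bind fatty acids and, with RXR, recognise a direct repeat of AGGTCA with 1 base between its copies (DR1). BCL6 is a zinc-finger repressor that recognises elements like TTCCTAGAA.

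Each list held positions alone, with 1 fixed peak width per list of 192 to 222 bp, and no height or read depth. The lists held 15642 (BCL6 fed), 9613 (BCL6 fasted), 17454 (BCL6 fed, Bcl6 fl/fl), 21410 (PPARα fed), 29085 (PPARα fasted), 7328 (PPARδ fed) and 2399 (PPARδ fasted) peaks. A list was called over the 3 livers of its group, so no spread between animals can be given and no difference between lists was tested. Intervals are 95% Wilson intervals and cover counting error only. A factor that is not in a list at a site was not called there, which is not evidence that it was absent. A peak near a gene does not show that the gene is its target. All 6 hepatocyte markers examined (Alb, Ttr, Apoa1, Apob, Tat, Cps1) had a peak in every list except PPARδ fasted, where 4 of 6 did. Of the markers of other cells reported here, Gfap, Myh6, Krt5 and Cd3e had no peak in any list, and Ins2 had 1, in the fasted PPARα list.

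The first sequence shown lies upstream of Fads2, and the study measured it by ChIP-qPCR with the primer pair below. It is shown because every one of the 7 lists had a peak there, as was also the case at a Fads1 site shown after it.
Forward primer: aagtgccaacctggaagaa
Reverse primer: caatctctgacctctgatctctatg
Both primers matched the mouse genome exactly at 1 place, chr19:10122472-10122571 (GRCm38, the mm10 build), a product of 100 bp whose centre lies 21018 bp upstream of the Fads2 TSS. The 200 bases that end with this product, chr19:10122372-10122571 on the plus strand, read as follows, with the 2 primer sites in capitals.
Fads2 upstream element: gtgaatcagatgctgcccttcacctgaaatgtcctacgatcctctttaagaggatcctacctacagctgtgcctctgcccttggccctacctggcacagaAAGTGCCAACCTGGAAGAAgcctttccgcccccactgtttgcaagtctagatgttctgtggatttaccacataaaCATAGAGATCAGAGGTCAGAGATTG
Peak centres of the 7 lists lay 31 bp (BCL6 fasted) to 121 bp (BCL6 fed) to the left of the product's centre. Those of PPARα lay 62 bp (fed) and 46 bp (fasted) to its left, and those of PPARδ 91 bp (fed) and 65 bp (fasted). Across the 6 C57BL/6 lists the centres spanned 90 bp. Of the 5 elements searched for, described below with their limits, the joined site of 304 bp held 2 matches. The first was a DR1 with 1 mismatch, AGATCAGAGGTCA (chr19:10122552-10122564, plus strand), inside the reverse primer site shown above. The second was a DR4 with 2 mismatches (chr19:10122391-10122406, minus strand). The DR1 lies just past the central 200 bases of the site, so the counts of sites with DR1 given below do not hold it. The joined site, chr19:10122292-10122595, is 1 of 2 sites of the 8 genes that were called for all 3 factors in both feeding states. A call in both states does not show that binding was equal, since the lists hold no height. The study reports that, over the sites shared by BCL6 and PPARα, BCL6 binding fell and PPARα binding rose with fasting. Over the whole genome 678 of 38462 joined sites (1.76%) were called in all 6 C57BL/6 lists, against 2 of 56 sites of the 8 genes (3.57%, interval 0.985 to 12.1). Peaks were joined into a site when their centres lay within 200 bp.

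The other site called in all 6 lists belongs to the interval between Fads2 and Fads1, 33432 bp upstream of the Fads1 TSS (chr19:10149329-10149589). Its 6 centres spanned 47 bp, and the Bcl6 fl/fl list had a peak there too. None of the 5 elements searched for was found in the 261 bp of this site. Its central 200 bases are shown, chr19:10149356-10149555, plus strand.
Fads1 upstream site: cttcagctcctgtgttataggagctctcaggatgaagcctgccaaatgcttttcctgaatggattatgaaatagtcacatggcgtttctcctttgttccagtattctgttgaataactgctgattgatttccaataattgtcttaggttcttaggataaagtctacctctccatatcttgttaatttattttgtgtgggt

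Peaks were found at all 8 genes, though Elovl1 had a peak in 1 list alone. BCL6 peaks numbered 29 in fed, 22 in fasted and 30 in fed Bcl6 fl/fl livers. PPARα peaks numbered 36 in fed and 45 in fasted livers. PPARδ peaks numbered 14 in fed and 3 in fasted livers. The direction of each change was that of the whole list. BCL6 peaks of the 8 genes decreased by 24.1% from fed to fasted and all BCL6 peaks decreased by 38.5%. PPARα peaks rose by 25.0% in number, against 35.8% for the list. PPARδ peaks decreased by 78.6%, and the whole list decreased by 67.3%. The bar charts of peaks by gene and list show these counts.

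**Figure D1:**
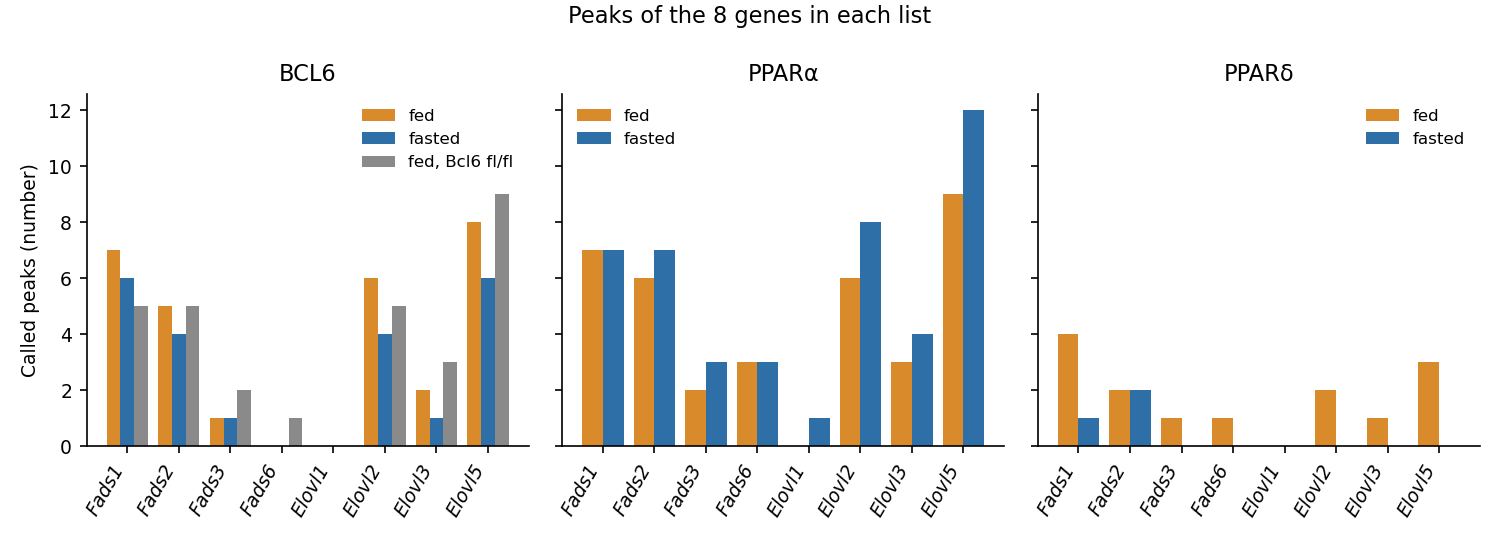
Number of called peaks (vertical axis) of each gene in the lists of BCL6, PPARα and PPARδ, with fed lists in orange, fasted lists in blue and the fed Bcl6 fl/fl list in grey. Elovl5 had the most PPARα peaks (9 fed, 12 fasted), and only Fads1 and Fads2 had PPARδ peaks in fasted livers.

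Genes with a peak were frequent in this set. In fed livers 6 of 8 had a BCL6 peak, against 28.0% of all protein-coding genes, 7 of 8 had a PPARα peak, against 34.3%, and 7 of 8 had a PPARδ peak, against 18.6%. In fasted livers the counts were 6 of 8 for BCL6 (20.6% of all genes), 8 of 8 for PPARα (46.0%) and 2 of 8 for PPARδ (8.70%). In fed Bcl6 fl/fl livers 7 of 8 genes had a BCL6 peak, against 30.9%. These shares depend on how much sequence a gene is given, since larger genes and intergenic gaps hold more peaks. Per megabase of the sequence assigned to it, each gene had more sites than all genes together (19.2 per Mb), from 65.0 at Elovl1, 89.8 at Elovl5 and 113 at Fads2 to 168 at Fads6. By number, 7 of the 8 genes had more sites than at least 84.1% of all genes, and Elovl1, with 1 site, had more than 48.6%. In these rankings Fads3 had 5 sites, including those within Fads2 nearest to the Fads3 TSS. In the counts below such sites are given to Fads2 alone. High numbers were not particular to the 8 genes, since the 6 hepatocyte markers had from 8 (Tat) to 17 (Apoa1) sites.

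Joining the peaks of the 6 C57BL/6 lists gave 56 sites, 14 at Elovl5, 11 at Elovl2, 9 each at Fads1 and Fads2, 5 at Elovl3, 4 at Fads6, 3 at Fads3 and 1 at Elovl1. Relative to the curated RefSeq transcript that starts farthest upstream, 27 sites lay upstream of the gene, 26 in introns, 2 downstream and 1 in a coding exon. The farthest were those of Elovl5, 71267 and 68604 bp upstream, and no peak between 100 kb and 1 Mb had one of the 8 genes as nearest. BCL6 was called at 31 sites, PPARα at 49 and PPARδ at 15. BCL6 and PPARα shared 26 sites (46.4%, interval 34.0 to 59.3), against 35.4% of all sites. All 3 factors shared 11 sites (19.6%, interval 11.3 to 31.8), against 12.1% of all sites. Both background shares lay inside these intervals. PPARα alone was called at 21 sites, BCL6 alone at 5 and PPARδ alone at 2. At the 26 shared sites the nearest BCL6 and PPARα centres were a median of 13 bp apart and at most 51.0 bp, against a median of 14.0 bp over all 13633 such sites.

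**Figure D2:**
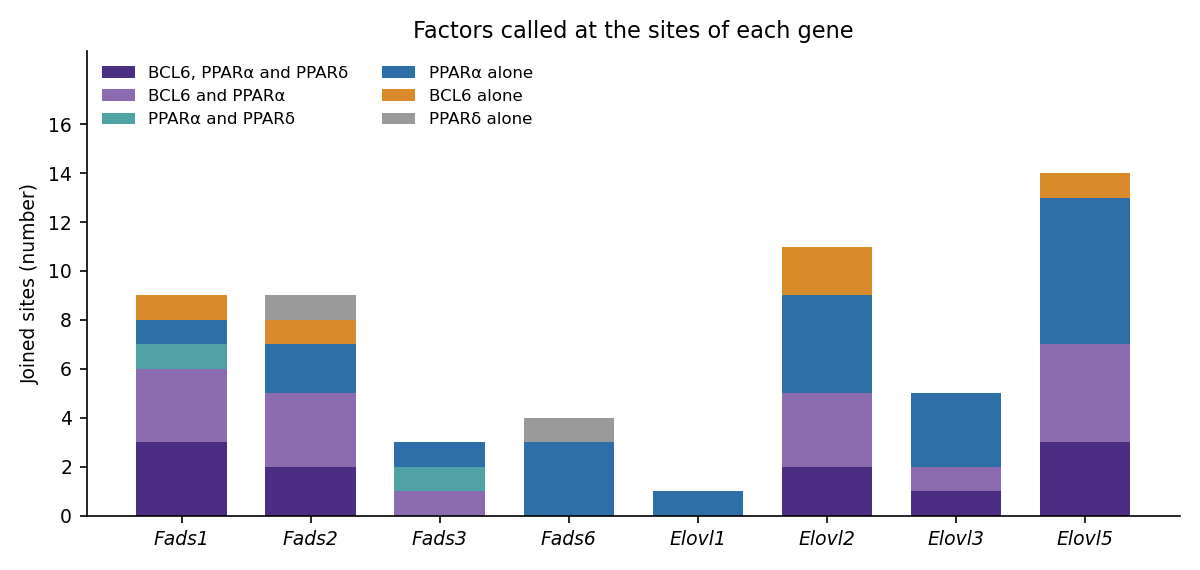
Number of joined sites of each gene (vertical axis), stacked by the factors called there in fed or fasted C57BL/6 livers. Fads6 and Elovl1 had no site with BCL6, and sites with all 3 factors were found at Fads1 (3), Fads2 (2), Elovl2 (2), Elovl3 (1) and Elovl5 (3).

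Fads1, Fads2 and Fads3 lie side by side on chromosome 19, with sites from intron 9 of Fads3 to intron 8 of Fads1. No site of Fads3 lay closer to its TSS than 14628 bp. Fads3 (chr19:10040855-10060113) and Fads2 (chr19:10062765-10101503) meet tail to tail with 2652 bp between them, and the Fads2 and Fads1 (chr19:10182877-10196874) TSSs face away from each other across 81385 bp. In this cluster 21 sites spanned 137806 bp with a median spacing of 4368 bp. The interval between the Fads2 and Fads1 TSSs held 11 of them, 6 with both BCL6 and PPARα. Nearness to a TSS assigns the sites of this interval to Fads2 or Fads1, and the lists do not show which gene, if either, a site serves. The map of the cluster shows the sites list by list.

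**Figure D3:**
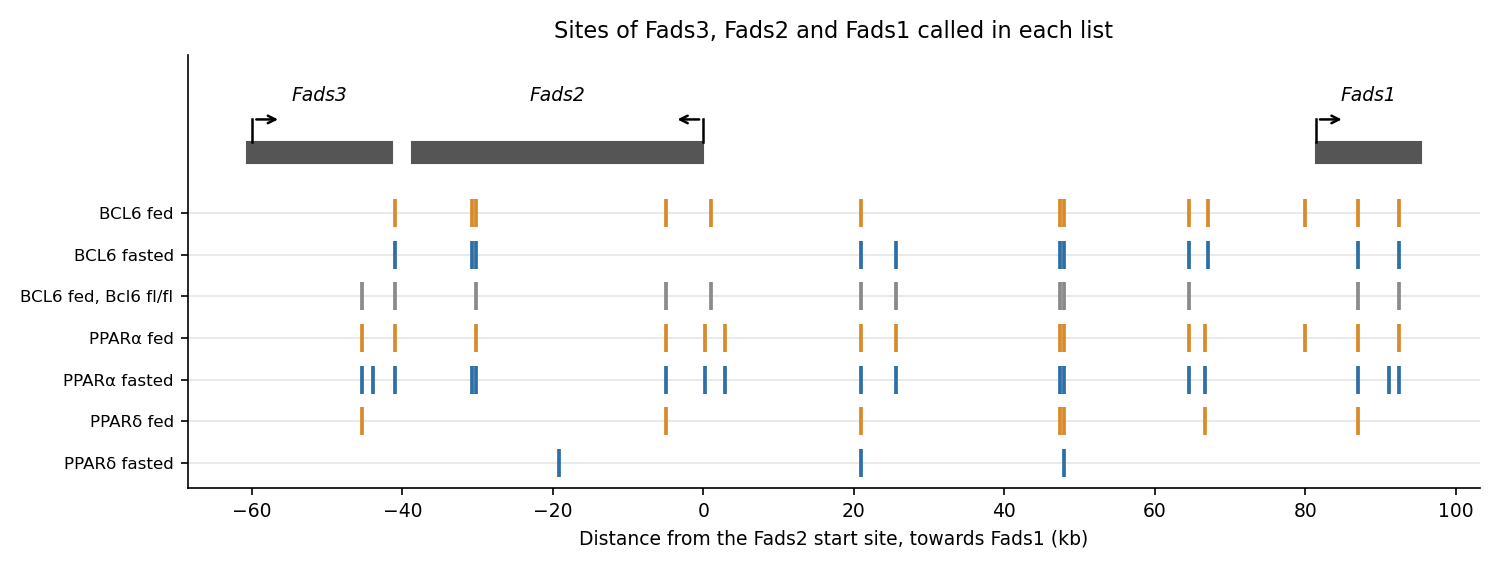
Position of each site of Fads3, Fads2 and Fads1 in kb from the Fads2 start site (horizontal axis), with 1 row per list and ticks in orange for fed, blue for fasted and grey for fed Bcl6 fl/fl. Bars are the genes and arrows their start sites. The columns of ticks through all 7 rows are the sites 20949 bp upstream of Fads2 and 33432 bp upstream of Fads1.

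At Fads1 BCL6 had 7 peaks in fed, 6 in fasted and 5 in fed Bcl6 fl/fl livers, PPARα had 7 and 7, and PPARδ 4 in fed and 1 in fasted livers. Of its 9 sites, 6 had both BCL6 and PPARα. A site 34054 bp upstream (chr19:10148697-10148980) was called for BCL6 and PPARα in both states and for PPARδ in fed livers. The same pattern was found 5591 bp downstream of the TSS in intron 5. In fasted livers, then, BCL6 and PPARα were called at both of these sites and PPARδ at neither. Closer to the gene, a site 1472 bp upstream was called for BCL6 and PPARα in fed livers and in neither fasted list. A site in intron 6, 9689 bp downstream, was the 1 Fads1 site called for PPARα in fasted livers alone. No site of Fads1 lay in its promoter, taken here as 1000 bp upstream to 100 bp downstream of a TSS.

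At Fads2, whose enzyme takes the first step of the pathway, BCL6 had 5 peaks in fed, 4 in fasted and 5 in Bcl6 fl/fl livers, PPARα 6 in fed and 7 in fasted, and PPARδ 2 in each state. Beside the upstream element above, the site in intron 1, 4937 bp downstream of the TSS, was called for all 3 factors. There BCL6 and PPARδ were called in fed livers alone and PPARα in both states. It held the 1 exact copy of TTCCTAGAA among the 56 sites, on the strand of the gene, in capitals in its central 200 bases (chr19:10096466-10096665, minus strand).
Fads2 intron 1 site: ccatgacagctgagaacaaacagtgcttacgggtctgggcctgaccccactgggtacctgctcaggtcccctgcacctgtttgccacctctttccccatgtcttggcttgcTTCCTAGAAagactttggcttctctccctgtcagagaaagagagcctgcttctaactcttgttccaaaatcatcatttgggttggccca
BCL6 was called in fasted livers and not in fed C57BL/6 livers at 1 Fads2 site, 25586 bp upstream, where PPARα was called in both states. The fed Bcl6 fl/fl list did have a peak there, so the fed lists differed at this site. PPARα was called in fasted livers alone at 1 site in intron 5, 30694 bp downstream, where BCL6 was called in both states. The site in intron 5 nearest to the TSS, 19124 bp downstream, was in the fasted PPARδ list and no other, which no other site of the 8 genes was.

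Fads3 and Fads6 had fewer sites. Fads3 had 1 BCL6 peak in each C57BL/6 list and 2 in Bcl6 fl/fl livers, 2 PPARα peaks in fed and 3 in fasted livers, and 1 PPARδ peak, in fed livers. These counts leave out peaks within Fads2 whose nearest TSS was that of Fads3. With them Fads3 had 3 peaks in each BCL6 list, and 3 PPARα peaks in fed and 5 in fasted livers. Of the sites given to Fads3, the 1 with BCL6 and PPARα, both in both states, lay past the end of the gene. It was 18932 bp from the TSS, in the gap to Fads2. A site in intron 11, 16095 bp downstream, was called for PPARα in fasted livers alone. Fads6 (chr11:115278626-115297731) had no BCL6 peak in C57BL/6 livers and 1 in Bcl6 fl/fl livers. It had 3 PPARα peaks in each state, which were the same 3 sites, and 1 PPARδ peak in fed livers. That PPARδ site, 1382 bp downstream in intron 2, was called for no other factor.

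Of the elongases, Elovl5 (chr9:77917365-77984519) had the most sites of the 8 genes. BCL6 had 8 peaks in fed, 6 in fasted and 9 in Bcl6 fl/fl livers, PPARα 9 and 12, and PPARδ 3 in fed and 0 in fasted livers. All 3 factors shared 3 sites, 68604 bp upstream (chr9:77848650-77848880) and 26150 and 33742 bp downstream in intron 1. At each, BCL6 and PPARα were called in both states and PPARδ in fed livers alone. Intron 1 of this gene held 9 of the 14 sites, 6 of them with BCL6. A further annotated Elovl5 TSS lies within this intron. It is 2219 bp from the site 26150 bp downstream, 1304 bp from that at 25235 bp and 1887 bp from that at 22044 bp. PPARα was called in fasted livers alone at 6685 and 105 bp upstream and at 1899 and 22044 bp downstream, and BCL6 was in both C57BL/6 lists at the last of these and in neither at the other 3. The fasted PPARα site 1899 bp downstream and a fed PPARα site 2106 bp downstream fell just outside the joining distance and were counted as 2.

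Elovl2 (chr13:41182382-41220403), which lengthens the longest polyunsaturated chains, had 6 BCL6 peaks in fed, 4 in fasted and 5 in Bcl6 fl/fl livers, 6 PPARα peaks in fed and 8 in fasted, and 2 PPARδ peaks in fed livers. Its 2 sites with all 3 factors lay 7845 bp upstream and 24303 bp downstream, the latter in intron 2. BCL6 was called in fasted livers alone at the upstream one and in both states at the other, and at both PPARα was called in both states and PPARδ in fed livers alone. PPARα was called in fasted livers alone at the promoter and in intron 1, 3934 and 21870 bp downstream, where BCL6 was in neither list. BCL6 was called without any PPAR at 6735 bp upstream and 8950 bp downstream, in fed livers alone.

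Elovl3 (chr19:46131897-46135694), an elongase of saturated and monounsaturated chains, had 2 BCL6 peaks in fed, 1 in fasted and 3 in Bcl6 fl/fl livers, 3 PPARα peaks in fed and 4 in fasted, and 1 PPARδ peak in fed livers. Its 1 site with all 3 factors, 21541 bp upstream, repeated the pattern of BCL6 and PPARα in both states and PPARδ in fed livers alone. A site 6974 bp upstream was called for BCL6 and PPARα in fed livers and for neither in fasted livers. PPARα was called in fasted livers alone 27715 bp upstream and 4268 bp from the TSS, past the end of the gene. Elovl1 (chr4:118426874-118432953) had 1 peak in all, of PPARα in fasted livers at its promoter. The maps of Elovl5, Elovl2 and Elovl3 show these sites list by list.

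**Figure D4:**
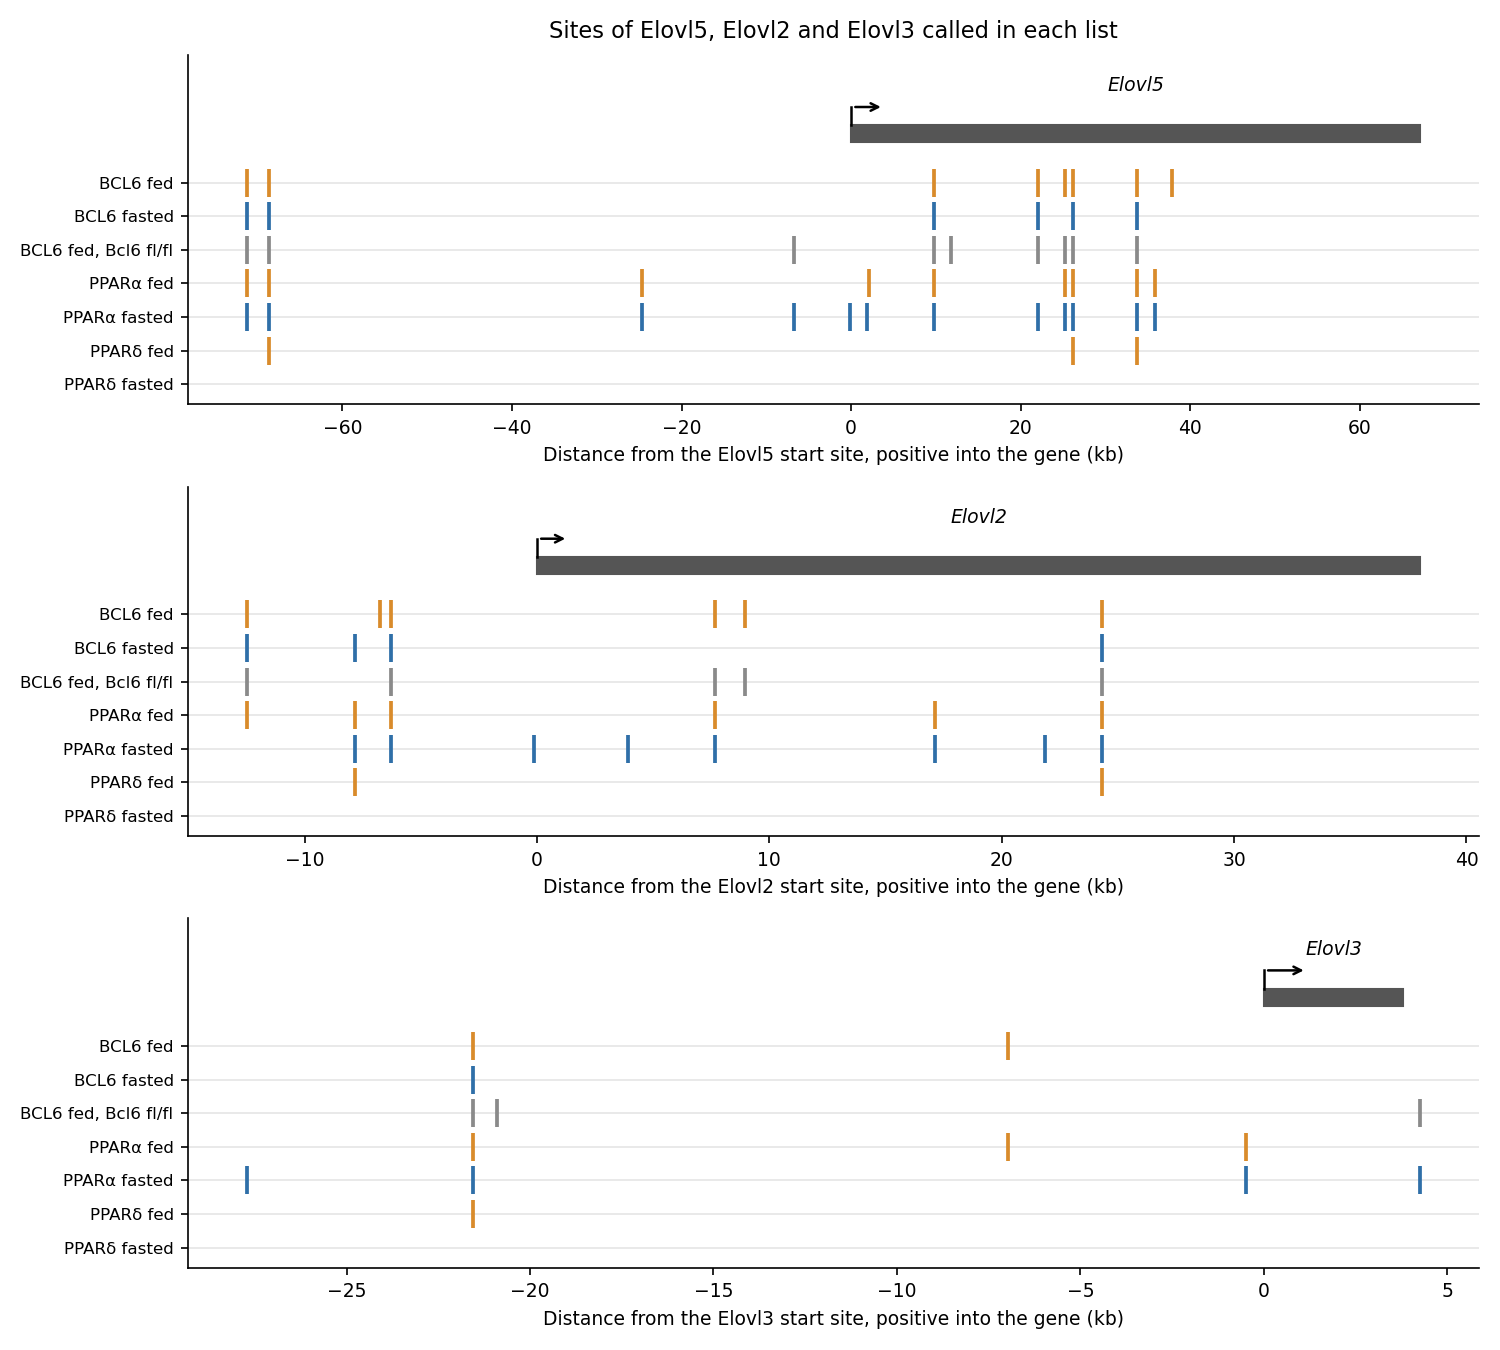
Position of each site in kb from the start site of Elovl5, Elovl2 or Elovl3 (horizontal axes, positive into the gene), with 1 row per list and ticks in orange for fed, blue for fasted and grey for fed Bcl6 fl/fl. Bars are the genes. None of the 3 genes had a tick in the fasted PPARδ row, and the ticks nearest to 0 are in PPARα rows.

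The promoters of 6 of the 8 genes held a site, and each was called for PPARα alone. PPARα was called in both states 189 bp upstream of Fads2 (chr19:10101581-10101803), 79 bp upstream of Fads6 and 497 bp upstream of Elovl3. It was called in fasted livers alone 78 bp upstream of Elovl1, 124 bp upstream of Elovl2 and 105 bp upstream of Elovl5. The sites of Fads6 and Elovl1 lay upstream of the curated transcript and yet within the annotated gene, which starts earlier. BCL6 and PPARδ were in none of their lists at these 6 sites. The absence of BCL6 depends on the promoter limit of 1000 bp. A site 1007 bp upstream of Fads2, just past it, was called for BCL6 alone, in both fed BCL6 lists and not in the fasted one. Promoter sites made up 10.7% of the sites of the 8 genes (interval 5.0 to 21.5), against 13.5% of all sites. Across the genome 75.7% of promoter sites had PPARα alone, and 57.9% of promoter sites with PPARα had it in fasted livers alone, so 6 of 6 and 3 of 6 are near what promoters in general gave. Outside promoters BCL6 was called at 31 of 50 sites of the 8 genes (62.0%) and at 50.1% of all such sites. The 6 promoter windows had a median GC content of 67.8%, against 48.8% for all 56 sites of the 8 genes, and the medians over the genome were 60.5% for promoter sites and 47.5% for all sites. The Fads2 promoter site is shown in the direction of the gene (chr19:10101592-10101791, minus strand), with a copy of a sterol element (TCACCCCAC, at most 1 mismatch, here on the opposite strand) in capitals.
Fads2 promoter site: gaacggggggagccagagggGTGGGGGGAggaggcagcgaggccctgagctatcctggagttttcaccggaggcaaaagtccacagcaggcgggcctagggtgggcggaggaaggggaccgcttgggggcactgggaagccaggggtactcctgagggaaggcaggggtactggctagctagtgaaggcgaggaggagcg

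Fed and fasted livers shared most BCL6 and PPARα peaks of the 8 genes and few PPARδ peaks. Of the 29 BCL6 peaks of fed livers, 20 were matched in the fasted list to within 200 bp (69.0%, interval 50.8 to 82.7), against 48.9% of all fed BCL6 peaks, which lies just below the interval. By gene this was 6 of 7 at Fads1, 3 of 5 at Fads2, 1 of 1 at Fads3, 3 of 6 at Elovl2, 1 of 2 at Elovl3 and 6 of 8 at Elovl5. Of 36 fed PPARα peaks, 32 had a fasted one (88.9%, interval 74.7 to 95.6), against 79.9%. Of 14 fed PPARδ peaks, 2 had a fasted one (14.3%, interval 4.01 to 39.9), against 20.9%. In the other direction 20 of 22 fasted BCL6 peaks (79.6% of all), 32 of 45 fasted PPARα peaks (58.8% of all) and 2 of 3 fasted PPARδ peaks (63.8% of all) had a fed one. Neighbouring peaks of 1 gene share their surroundings and are not independent, which the intervals do not cover. The plot of shares gives the values beside those of the remaining peaks.

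**Figure D5:**
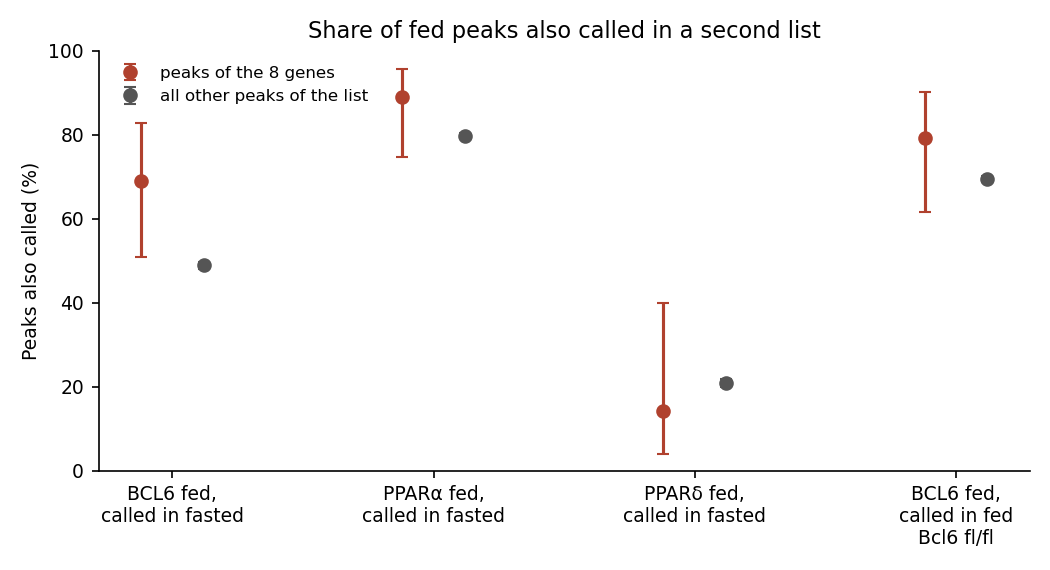
Share of fed peaks (vertical axis, percent) that had a peak within 200 bp in the fasted list of the same factor or, at the right, of fed C57BL/6 BCL6 peaks with one in the fed Bcl6 fl/fl list. Points in red are peaks of the 8 genes and in grey all other peaks of the list, and bars are 95% Wilson intervals. The intervals of the 8 genes hold the grey value for PPARα, PPARδ and the Bcl6 fl/fl comparison and end just above it for BCL6.

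Where both factors were called, each was mostly called in both states. Of the 26 sites with BCL6 and PPARα, 16 had both factors in both states (61.5%, interval 42.5 to 77.6), against 44.0% of all such sites. That background share lay inside the interval. Whether the states of these factors go together was not tested. BCL6 was in the fed list alone and PPARα in both at 3 sites, Fads2 intron 1, Elovl2 intron 1 (7653 bp downstream) and Elovl5 intron 1 (25235 bp downstream). Over the genome that combination made up 25.1% of shared sites, against 11.5% here. BCL6 was called in fed livers alone at 9 sites, and PPARα was called in fasted livers at 3 of those (33.3%, interval 12.1 to 64.6), against 53.0% of all fed-only BCL6 sites. PPARα was called in fasted livers alone at 13 sites, and at 11 of these (84.6%, interval 57.8 to 95.7) BCL6 was in neither C57BL/6 list, against 86.7% of all such sites. At all 11 sites with 3 factors PPARα was called in both states (93.0% of all such sites), and at 9 of them (81.8%) PPARδ was called in fed livers alone (76.4% of all such sites). These 3 shares were near those of the whole lists.

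The fed BCL6 lists from C57BL/6 and Bcl6 fl/fl mice shared 23 of 29 C57BL/6 peaks of the 8 genes (79.3%, interval 61.6 to 90.2), against 69.4% of all peaks. BCL6 sites called in both feeding states were in the Bcl6 fl/fl list at 18 of 20, and those called in fed C57BL/6 livers alone at 5 of 9, with 88.5% and 51.0% over all sites. In turn 7 of 30 Bcl6 fl/fl peaks (23.3%, interval 11.8 to 40.9) had no fed C57BL/6 BCL6 peak within 200 bp, against 37.8% of all peaks of that list. Of these, 4 lay at sites with PPARα and no C57BL/6 BCL6 peak, at Fads3, Fads6, Elovl3 and Elovl5, and 2 lay at no C57BL/6 site. The remaining one was the Fads2 site 25586 bp upstream, where BCL6 was called in fasted C57BL/6 livers.

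Elements that match the factors were found at a minority of the sites. Both strands of the central 200 bases were searched for TTCCTAGAA (at most 1 mismatch), for DR1 and DR4 (2 copies of AGGTCA with 1 or 4 bases between, at most 2 mismatches), for TCACCCCAC (at most 1 mismatch) and for the FOXA element TGTTTAC (exact). A BCL6 element was found at 7 of 56 sites (12.5%, interval 6.19 to 23.6), against 9.86% of all sites. DR1 was found at 5 (8.93%, interval 3.87 to 19.3), against 13.5%, and DR4 at 3 (5.36%, interval 1.84 to 14.6), against 4.67%. The FOXA element was found at 2 (3.57%, interval 0.985 to 12.1), against 7.37%. These 4 background shares all lay inside the intervals. The sterol element was found at 10 sites (17.9%, interval 10.0 to 29.8), against 5.67%, and the same letters reversed were found at 10.7% of the sites and 5.28% of all sites. Matches of different elements did not overlap at any of the 56 sites. A match is a description of the sequence and does not show binding.

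The 7 sites with a BCL6 element are shown with 10 bases to either side of the element (capitals), on the strand of the element, since they differ in the factors called there. BCL6 was called at 6 of them and not at the Elovl5 site 1899 bp downstream, which was in the fasted PPARα list alone. Over the 56 sites BCL6 was called at 31 (55.4%). An intron named below is the place of the site's centre and not of the element. At the Fads1 site named intron 8, the sequence searched also overlapped an exon. Whether the element there lies in that exon, and so in coding sequence, was not tested.
Fads1 intron 5 (chr19:10188438-10188466, plus): cccagcagagTTCCTTGAAaagttaatta
Fads1 intron 8 (chr19:10193987-10194015, plus): attcaacaggTTCCTGGAAagcaactggt
Fads2 intron 1 (chr19:10096536-10096564, minus): cttggcttgcTTCCTAGAAagactttggc
Elovl3 6974 bp upstream (chr19:46124986-46125014, minus): tccagccagtGTCCTAGAAtccctcagtc
Elovl5 1899 bp downstream (chr9:77919235-77919263, minus): tctgccatagTTCCTGGAAgacaaggcaa
Elovl5 22044 bp downstream (chr9:77939392-77939420, plus): ctggttatttTTCCTGGAAgtcaggctcc
Elovl5 37830 bp downstream (chr9:77955183-77955211, minus): aaaaagtaagTTCCTGGAActgctctgaa
The element TTCCTGGAA recurred at 4 of the 7 sites, 1 at Fads1 and 3 in intron 1 of Elovl5.

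The 5 sites with DR1 held 6 matches, shown likewise with the element in capitals. PPARα was called at all 5, and BCL6, PPARα and PPARδ at 3, those of Elovl3 and Elovl5. Over the 56 sites PPARα was called at 49 (87.5%) and all 3 factors at 11 (19.6%).
Fads1 intron 6 (chr19:10192519-10192551, minus): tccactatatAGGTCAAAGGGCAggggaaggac
Fads6 promoter (chr11:115297661-115297693, minus): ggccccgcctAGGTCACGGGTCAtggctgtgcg
Elovl3 21541 bp upstream (chr19:46110299-46110331, plus): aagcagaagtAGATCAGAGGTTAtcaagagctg
Elovl5 68604 bp upstream, first (chr9:77848746-77848778, plus): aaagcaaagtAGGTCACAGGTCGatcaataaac
Elovl5 68604 bp upstream, second (chr9:77848653-77848685, minus): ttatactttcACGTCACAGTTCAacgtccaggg
Elovl5 33742 bp downstream (chr9:77951025-77951057, plus): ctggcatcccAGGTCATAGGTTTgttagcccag
The matches of Fads1, of the Fads6 promoter and the first one of Elovl5 had 1 mismatch and the other 3 had 2. The first Elovl5 match lay 1 bp from the centre of its site. In RefSeq promoter sequences (250 bases before to 50 after a TSS, GRCm38.p6), 6 of the 8 genes had 8 entries, and DR1 was found in 2 of these, of Fads6 and Elovl1, against 3.86% of 32851 promoters. The BCL6 element was found in 0 of the 8, against 8.63%.

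Other genes of fatty acid elongation and desaturation, 18 chosen for their roles, had 277 peaks and 91 sites. Of these genes 12 had a BCL6 peak in fed livers and 9 in fasted livers. PPARα peaks were found at 11 and 13 of them, and PPARδ peaks at 9 and 3. Of all protein-coding genes, 28.0% had a BCL6 peak in fed and 20.6% in fasted livers. For PPARα these shares were 34.3% and 46.0%, and for PPARδ 18.6% and 8.70%. The share of the 18 genes was above that of all genes in each of these lists. Genes with a peak were thus frequent here too. The most sites were at Elovl6, which lengthens palmitate (20 sites), at Hsd17b12, the ketoacyl-CoA reductase of elongation (13), and at Cyb5a and Cyb5b, electron donors of desaturases (10 each). Elovl4, Elovl7, Hacd4, Scd3 and Scd4 had no site, and Scd4 had 1 peak, in the Bcl6 fl/fl list. Elovl6 had 12 BCL6 peaks in fed and 9 in fasted livers, 14 and 16 PPARα peaks and 5 and 3 PPARδ peaks, so that all its counts were above those of Elovl5. By the summed difference in peak counts over the 7 lists, the gene most like Elovl5 was Apob (a difference of 4 peaks), with Fam214a and Lrp6 among those at 5. For Elovl2 it was Car1, Mcc and Plcxd2 among 4 genes at a difference of 2.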

How the data were processed

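The authors used Bowtie to place single-end ChIP-seq reads on mm10, retained those with a unique position with at most 1 tag per start position, and called peaks against input with HOMER over the 3 livers of a group, with DESeq2 for the enrichment over input. The deposited lists hold 1 position per peak (chromosome, start and end) and no count, signal or p-value, so peak height and depth are unknown and a stricter threshold could not be tried. No list is given per animal.

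All peaks lay within GRCm38 chromosomes. Centres were assigned to genes with RefSeq annotation of GRCm38.p6 (21774 protein-coding genes, 84748 transcripts), the gene body first and then the nearest TSS within 100 kb, and distances are from the curated transcript that starts farthest upstream. A peak within several genes counted once among the 8 and under each gene for the background over all genes. Centres within 200 bp, the distance the study uses, counted as the same site. No test was run: shares carry 95% Wilson intervals beside the same share over all peaks or sites. Sequences were read from GRCm38.p6 with Python 3.11.15 and NumPy 2.4.6, and scans were tested on simulated data with planted elements. The 8 genes, the 18 other genes, the markers and the elements were chosen with earlier results of these data known. Sites described one by one were those with all 3 factors, in a promoter, or with a factor in fasted livers alone, and the Fads2 ChIP-qPCR region, and other genes were named for having the most or no sites or the peak counts most like those of Elovl5 and Elovl2. Sites and genes named beyond these were chosen after their values were seen. Alternatives were the reach of a gene, the transcript set, the joining distance, the promoter window, the motif window and mismatches, and the fed Bcl6 fl/fl list in place of or beside the fed C57BL/6 list. A further marker of other cells is not reported here.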

Additional observations from a re-analysis of the deposited data

How the results depend on the processing

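Of 93 alternative values, 75 stayed within 1.5 times the reported count or inside the interval of the reported share. Counting gene bodies alone left 14 BCL6 fed, 9 BCL6 fasted, 15 BCL6 Bcl6 fl/fl, 17 PPARα fed, 24 PPARα fasted, 7 PPARδ fed and 1 PPARδ fasted peaks and 29 sites, since about as many peaks lay outside the genes, and put the share of fed PPARδ peaks with a fasted one at 0% of 7. A motif window of 50 bp put DR1 at 1.79%, DR4 at 0%, the sterol element at 5.36% (1.31% of all sites) and FOXA at 0%. With 1 mismatch fewer the BCL6 element was at 1.79%, DR4 at 0% and the sterol element at 0%. Reversed letters put the BCL6 element at 1.79% and DR4 at 0%, and DR1 at 7.14% against 8.93% for DR1 itself, where over all sites the values were 2.92% and 13.5%. The share of fed BCL6 peaks with a fasted one was 63.3% to 69.0% under its alternatives, against 44.3% to 49.4% of all peaks. With the fed Bcl6 fl/fl list (63.3% against 44.3%) or gene bodies alone (64.3%) it rests on 30 and 14 peaks. No intervals were computed for these shares, so whether such intervals would hold the background share was not tested. No paired analysis was possible because the lists carry no values per animal, and for the same reason no replicate could be left out. Depth limits every absence: a site under the calling threshold is not listed.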
